A study of Homo sapiens with 32 samples.

Results

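DLD1 colorectal cancer cells carrying the G579S change, kept in the solvent DMSO, were set against A375 melanoma cells carrying the same change and kept in the same solvent. The members were the 2 libraries titled as DLD1 G579S with DMSO and the 2 titled as A375 G579S with DMSO. They make up 4 of the 32 RNA-seq libraries of the series. The DLD1 G579S pair was picked as the only DMSO libraries with colorectal identity. The marker check below is therefore not an independent test of that identity. The series holds 4 human cancer cell lines, each as cells labelled wild-type and cells labelled G579S, with DMSO or 100 nM OTS964 for 6 h and 2 libraries in each of 16 groups. G579S is a change that the design text calls resistant to inhibition of CDK11, the cyclin-dependent kinase that OTS964 targets. Both groups of the main comparison carry it, and both received DMSO for 6 h. The DLD1 G579S and A375 G579S libraries with OTS964, 2 of each, gave the same comparison in drug. Below, DLD1 and A375 stand for the G579S cells unless a label is added.

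Each tumour type is represented by a single established cell line, so the values compare these lines and not colorectal cancer with melanoma at large. The sources used here do not state whether the G579S cells were 1 clone or a pool. Nothing in the labels ties the 2 libraries of a group to separate cultures, so p-values measure only the spread between libraries, which may be technical.

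As background, DLD1 derives from a colorectal adenocarcinoma, an epithelial tumour in which cells are joined by E-cadherin junctions and keep part of the gut programme set by transcription factors such as CDX2. It carries truncated APC, which leaves the Wnt pathway active, and a defect in mismatch repair. A375 derives from a melanoma, a tumour of pigment cells that arise from the neural crest, a migratory embryonic cell population marked by SOX10 and PAX3. It carries an activating BRAF mutation.

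The tables hold estimated read counts per transcript, which were summed to 18859 genes. The DLD1 libraries held 18075928 and 19096909 reads and the A375 libraries 20770317 and 20421939, against a range of 16091376 to 29742687 over the series. Levels below are counts per 1e6 mapped counts (CPM), scaled between libraries by TMM factors and not divided by gene length, so they are compared between groups and not between genes. The kinase itself did not differ by the test. CDK11A stood at 37.3 and 36.5 CPM in DLD1, against 38.8 and 40.8 CPM in A375 and CDK11B at 50.6 and 46.4 CPM in DLD1, against 52.9 and 51.9 CPM in A375, with edgeR adjusted p = 0.58 and 0.6. Both genes are near-identical and share reads, so the split between them is uncertain, and gene counts cannot show the G579S change. Their partners CCNL1 and CCNL2, the cyclins L, also did not pass the test, with edgeR adjusted p = 0.24 and 0.094. Leaving out A375 replicate 1 brought CCNL1 past the threshold, with a log2 fold change of 1.15 and an adjusted p of 0.04.

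The tissue labels were checked against marker lists. The 12 colorectal markers summed to 1654 and 1637 CPM in DLD1 and to 23.2 and 22.1 CPM in A375. The 12 melanoma markers summed to 98.6 and 96.8 CPM in DLD1 and to 2203 and 2266 CPM in A375, and the 8 mesenchymal markers to 21.0 and 18.6 CPM in DLD1 and to 5883 and 6067 CPM in A375. The colorectal and melanoma sums were therefore each high in the libraries their label predicts, though not every defining marker was present. In DLD1, the general epithelial genes EPCAM (684.5 and 692.8 CPM) and CDH1 (556.6 and 545.3 CPM) held most of the colorectal sum. That sum therefore reflects epithelial genes more than gut-specific ones. It was 360.2 and 424.5 CPM in Cal51 G579S with DMSO and 74.7 and 72.1 CPM in MDA-MB-231 G579S with DMSO. A few genes also carried the A375 sums. VIM (3681 and 3893 CPM) and SPARC (1892 and 1864 CPM) held most of the mesenchymal sum. SOX10 (1019 and 1047 CPM) and CSPG4 (566.5 and 610.3 CPM) held most of the melanoma sum. CDX1, a gut transcription factor, was at 0 in all 4 libraries, and the brush border gene VIL1 reached only 0.386 and 0.474 CPM in DLD1, against 0 and 0 CPM in A375 (adjusted p = 0.01, or 0.055 and 0.054 without A375 replicate 1 or 2). The pigment genes TYR, MLANA, TYRP1 and DCT had at most 0.153 CPM in any of the 4 libraries, so A375 is marked here by SOX10 and its partners and not by pigment enzymes. The DMSO libraries labelled DLD1 wild-type went against their label, with 59.4 and 74.3 CPM for the colorectal sum and 1824 and 1645 CPM for the melanoma sum. Those libraries and their OTS964 counterparts enter no contrast here. They do enter the shared estimate of spread, the filter on low counts and the scaling between libraries. The counts of called genes, of usage calls and of list members were repeated without them. Blood and endothelial marker sums stayed at or below 2.7 CPM in DLD1 and at or below 22.0 CPM in A375. In bulk RNA, fewer cells of a type and less RNA per cell cannot be told apart, which applies to every low level below.

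About as many genes were higher as were lower in DLD1. Of 14319 genes that passed a filter on low counts, 7324 (51.1%) differed at an adjusted p under 0.05 by edgeR's quasi-likelihood test, 3408 (23.8%) higher and 3916 (27.3%) lower in DLD1. With a fold of at least 2 as well, 4800 genes (33.5%) remained, 2212 (15.4%) higher and 2588 (18.1%) lower. Tested against a fold of 2 itself, 3478 genes passed, 1518 higher and 1960 lower. At the extreme, 127 genes had at least 10 CPM in both DLD1 libraries and no count in A375, and 120 genes the reverse. These shares are the background for each gene group below, since about as many genes differed as did not. The groups were chosen with earlier results of these data known, so their counts describe the data and do not test the groups. The median log2 fold change over all genes tested was 0.0.

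The widest gaps included epithelial genes such as CDH1 and EPCAM on the DLD1 side and VIM, SOX10 and MHC class II genes on the A375 side. The genes named here were the 12 genes in each direction with the largest difference in mean log2(CPM + 1), among those that did not overlap between groups and passed the same way in the OTS964 libraries. KRT19, a keratin of simple epithelia, stood at 1141 and 1171 CPM in DLD1, against 0.0509 and 0 CPM in A375. This is 44989.5-fold higher with a counting interval of 8074 to 1777033 (adjusted p = 1.1e-15), where the interval covers counting error only. SPINT2, a membrane inhibitor of serine proteases, stood at 832 and 869 CPM in DLD1, against 0 and 0 CPM in A375, at least 5515-fold higher (adjusted p = 4e-15). A fold given as "at least" is set against a floor of 3 counts per library, because every A375 library was at 0. CDH1, which encodes E-cadherin, stood at 557 and 545 CPM in DLD1, against 0 and 0 CPM in A375, at least 3572-fold higher (adjusted p = 6.9e-15). EPCAM, an epithelial adhesion molecule, stood at 684.5 and 693 CPM in DLD1, against 0.153 and 0.104 CPM in A375, a log2 fold change of 12.31 ± 0.35 (adjusted p = 6e-16). In all of these the 2 DLD1 libraries differed little from each other and lay far above both A375 libraries. Here and below, ± is an approximate standard error, the absolute log2 fold change divided by the square root of the test's F statistic. It can be too small where a line has few counts, and EPCAM had 5 in A375. The secreted signal BMP4 stood at 956 and 974.5 CPM in DLD1, against 0.407 and 0.728 CPM in A375, a log2 fold change of 10.72 ± 0.57 (adjusted p = 5.7e-12). EREG, a ligand of the EGF receptor, stood at 404 and 389.7 CPM in DLD1, against 0.153 and 0 CPM in A375, 5146-fold higher with a counting interval of 1761 to 24957 (adjusted p = 3.8e-10). FOXQ1, a forkhead transcription factor, stood at 302 and 295 CPM in DLD1, against 0 and 0 CPM in A375, at least 1937-fold higher (adjusted p = 1.6e-12). The other 5 were the membrane protease ST14, its inhibitor SPINT1, the focal adhesion gene TNS4, the keratin-associated FAM83H and the scavenger receptor OLR1, with 289.7 to 486 CPM in DLD1 and at most 0.0509 CPM in A375.

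On the other side, CD74, the invariant chain that escorts MHC class II molecules, stood at 1.82 and 2.84 CPM in DLD1, against 2579 and 2650.1 CPM in A375, a log2 fold change of -10.12 ± 0.27 (adjusted p = 3.2e-16). VIM, the mesenchymal filament vimentin, stood at 8.16 and 7.95 CPM in DLD1, against 3681 and 3893 CPM in A375, a log2 fold change of -8.88 ± 0.14 (adjusted p = 2.2e-19). SOX10, the transcription factor that specifies neural crest derivatives and melanocytes, stood at 0.938 and 1.63 CPM in DLD1, against 1019 and 1047 CPM in A375, a log2 fold change of -9.64 ± 0.38 (adjusted p = 2.2e-13). All 3 genes stayed at or below 8.16 CPM in DLD1 and lay above 1000 CPM in A375. MAGEA4, a cancer-testis antigen normally restricted to germ cells, stood at 1.71 and 2.0 CPM in DLD1, against 1232 and 1210.4 CPM in A375, a log2 fold change of -9.35 ± 0.51 (adjusted p = 2.3e-08). SPARC, a secreted matrix glycoprotein, stood at 4.41 and 3.06 CPM in DLD1, against 1892 and 1864 CPM in A375, a log2 fold change of -8.97 ± 0.25 (adjusted p = 6e-16). CSPG4, the melanoma-associated chondroitin sulfate proteoglycan, stood at 0.883 and 1.26 CPM in DLD1, against 566.5 and 610.3 CPM in A375, a log2 fold change of -9.08 ± 0.34 (adjusted p = 3.8e-14). The remaining 6 were the decoy receptor IL13RA2, the class II chains HLA-DRA and HLA-DPA1, the protease inhibitor SERPINA3, the activin antagonist FST and the Wnt antagonist SFRP1, each at no more than 1.1 CPM in DLD1 and between 309.9 and 832 CPM in A375. For some of these the A375 cells labelled wild-type under DMSO stood lower than A375 G579S, with 868 and 862 CPM of CD74, 179 and 181 CPM of HLA-DRA and 35.8 and 34.1 CPM of SERPINA3. The 12 genes higher in DLD1 had at most 1.41 CPM in A375 wild-type.

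**Figure D1:**
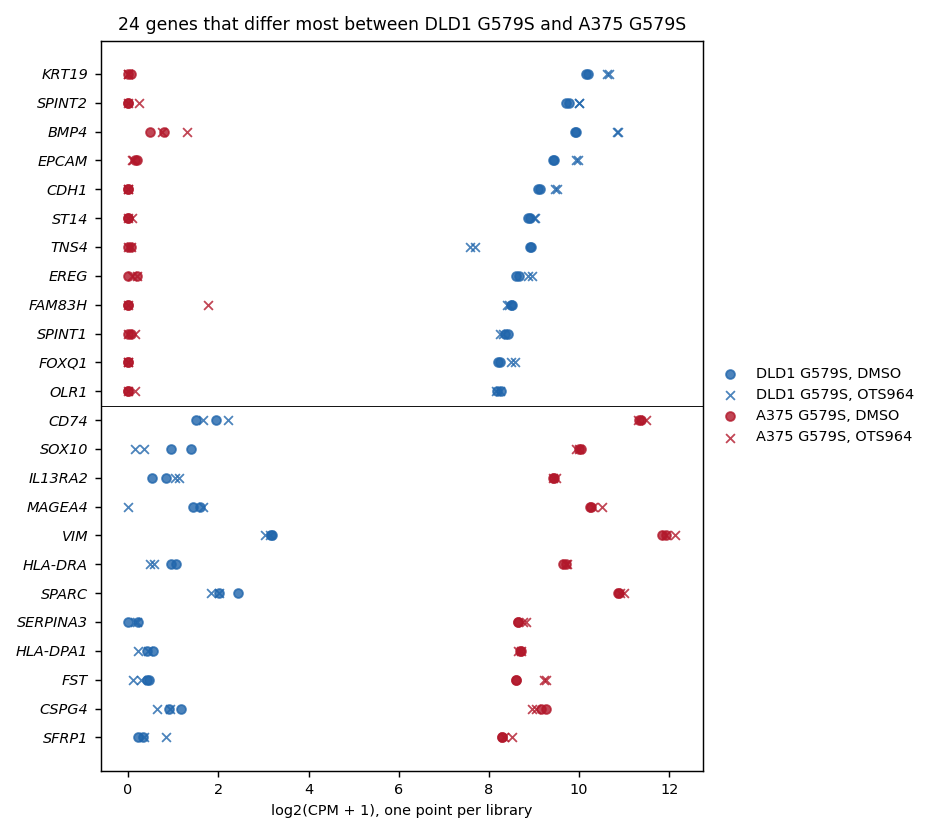
Levels of the 24 genes with the widest gaps, 1 row per gene, as log2(CPM + 1) on the x axis. Circles are the DMSO libraries and crosses the OTS964 libraries, blue for DLD1 G579S and red for A375 G579S. KRT19 lies at 1141 and 1171 CPM in DLD1 against 0.0509 and 0 CPM in A375, and VIM at 8.16 and 7.95 CPM in DLD1 against 3681 and 3893 CPM in A375.

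The transcription factors that hold cells in an epithelial state were mostly present in DLD1 and absent from A375. Of the 16 listed regulators tested, 13 were higher in DLD1 and 0 lower, with a median log2 fold change of 9.51, or 6.37 with genes absent from A375 set at their lower bound. The background was 23.8% higher. GRHL2, a grainyhead factor that drives E-cadherin and claudin genes, stood at 109 and 108 CPM in DLD1, against 0 and 0 CPM in A375, at least 704-fold higher (adjusted p = 6.3e-09). OVOL1 and OVOL2, zinc-finger repressors of mesenchymal genes, had 12.6 to 14.2 CPM in DLD1 and 0 in A375. ELF3, an ETS factor of epithelia, stood at 24.4 and 29.1 CPM in DLD1, against 0 and 0 CPM in A375, at least 174-fold higher (adjusted p = 2.8e-12). CDX2, the master regulator of intestinal identity, stood at 96.1 and 96.5 CPM in DLD1, against 0 and 0 CPM in A375, at least 624-fold higher (adjusted p = 2.2e-08). KLF5 was the exception in size, with 136 and 148 CPM in DLD1, against 62.2 and 60.1 CPM in A375, a log2 fold change of 1.22 ± 0.33 (adjusted p = 0.0038). TP63, ZNF750 and MYRF were not called, and TP63 had at most 0.102 CPM in any library.

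Genes of cell junctions were also mostly higher in DLD1. Of 18 adherens junction and desmosome genes, 14 were higher and 2 lower in DLD1 (median 4.83). JUP, or plakoglobin, which links cadherins to filaments, stood at 489.7 and 496.5 CPM in DLD1, against 3.25 and 3.85 CPM in A375, a log2 fold change of 7.12 ± 0.51 (adjusted p = 4.9e-10). DSP, the desmosomal plaque protein desmoplakin, stood at 243 and 220.0 CPM in DLD1, against 9.61 and 9.15 CPM in A375, a log2 fold change of 4.62 ± 0.20 (adjusted p = 2.4e-13). The cytoplasmic catenins were spread differently. CTNNB1, which encodes β-catenin, stood at 453 and 459 CPM in DLD1, against 468 and 463 CPM in A375 and did not pass (adjusted p = 0.75), CTNNA1 was lower (log2 fold change of -0.61 ± 0.16, adjusted p = 0.0036) and CTNND1, p120-catenin, was higher (log2 fold change of 0.56 ± 0.10, adjusted p = 7.1e-05). The other gene lower in DLD1 was the desmocollin DSC3, at 0 and 0.0527 CPM in DLD1 against 5.9 and 6.24 CPM in A375.

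Of 25 tight junction and polarity genes, 20 were higher and 2 lower (median 4.47). OCLN, occludin, stood at 57.9 and 59.7 CPM in DLD1, against 0.203 and 0.104 CPM in A375, a log2 fold change of 8.51 ± 0.60 (adjusted p = 3.3e-10). Among the claudins, the barrier proteins of tight junctions, 5 of 9 tested were higher and 1 lower, against 23.8% and 27.3% of all genes. CLDN7 stood at 118 and 121 CPM in DLD1, against 0.0509 and 0.052 CPM in A375, 2324-fold higher with a counting interval of 643 to 19193 (adjusted p = 1.4e-13). CLDN1 ran the other way, with 1.6 and 2.58 CPM in DLD1, against 5.7 and 6.81 CPM in A375, a log2 fold change of -1.57 ± 0.31 (adjusted p = 0.00024). TJP1, a scaffold of tight junctions, was higher (log2 fold change of 1.73 ± 0.23, adjusted p = 3e-06).

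Keratins, the filaments of epithelial cells, split by type. Of 17 tested, 10 were higher and 3 lower, with a median of 3.78, or 1.94 at the lower bound. KRT8 and KRT18, the filament pair of simple epithelia, were present in both lines. KRT8 stood at 5765 and 6026 CPM in DLD1, against 35.2 and 35.2 CPM in A375, a log2 fold change of 7.39 ± 0.17 (adjusted p = 3.7e-17). KRT18 stood at 3122 and 3264 CPM in DLD1, against 226 and 237 CPM in A375, a log2 fold change of 3.78 ± 0.15 (adjusted p = 7.8e-14). KRT20, a keratin of gut epithelium, stood at 28.6 and 29.1 CPM in DLD1, against 0 and 0 CPM in A375, at least 187-fold higher (adjusted p = 1e-05). Stratified-type KRT14 and KRT6B ran against these, each at 0 in both DLD1 libraries and between 6.0 and 9.15 CPM in A375. KRT8 and KRT18 have many processed pseudogenes, which can take or lend reads.

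Of 27 genes tested for membrane proteases and the vesicle machinery of polarized cells, 24 were higher and 1 lower (median 8.53, or 7.82 at the bound). RAB25, a GTPase of apical recycling, stood at 75.7 and 79.7 CPM in DLD1, against 0 and 0.052 CPM in A375, 3026.5-fold higher with a counting interval of 543 to 119581 (adjusted p = 3.7e-08). AP1M2, the epithelial form of the AP-1 clathrin adaptor, stood at 88.8 and 87.0 CPM in DLD1, against 0 and 0 CPM in A375, at least 569.8-fold higher (adjusted p = 0.0003). MAL2, a protein of transcytosis, stood at 296 and 299 CPM in DLD1, against 0.661 and 0.728 CPM in A375, a log2 fold change of 8.73 ± 0.44 (adjusted p = 2.5e-12). The gene lower in DLD1 was FXYD3, a regulator of the sodium pump, at 0 and 0 CPM in DLD1, against 14.7 and 17.4 CPM in A375, at least 99.4-fold lower (adjusted p = 5.9e-05).

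Of 20 intestinal transcription factors tested, 14 were higher in DLD1 and 2 lower (median 4.51, or 3.69 at the bound). SOX9, a factor of crypt progenitors, stood at 448 and 424 CPM in DLD1, against 0.61 and 0.468 CPM in A375, a log2 fold change of 9.64 ± 0.38 (adjusted p = 5.9e-14). In A375 cells labelled wild-type under DMSO it stood at 24.9 and 22.4 CPM. HNF4A, a nuclear receptor of gut and liver, stood at 36.5 and 33.5 CPM in DLD1, against 0.153 and 0 CPM in A375, 454-fold higher with a counting interval of 155 to 2202 (adjusted p = 1.4e-05). GATA6 was higher (log2 fold change of 4.29 ± 0.52, adjusted p = 1.4e-06) and GATA4 was lower, at 0 and 0 CPM in DLD1, against 20.5 and 17.3 CPM in A375, at least 117-fold lower (adjusted p = 2.8e-05). The brush border and enterocyte list had 12 of its 28 members untested for low counts in these libraries, and 9 of the 16 tested were higher and 2 lower. CDH17, an intestinal cadherin, stood at 36.7 and 33.9 CPM in DLD1, against 0 and 0 CPM in A375, at least 229-fold higher (adjusted p = 4.8e-08). EZR, the microvillus linker ezrin, was present in both, with 987 and 1026.5 CPM in DLD1, against 165 and 179 CPM in A375, a log2 fold change of 2.55 ± 0.09 (adjusted p = 2.3e-14). FABP1, SLC26A3, ALPI and PIGR, products of mature colon or small intestine, had 0 CPM in all 4 libraries. Of the goblet and secretory genes, 6 of 16 were higher and 4 lower. AGR2, a folding enzyme for mucins, stood at 135 and 139 CPM in DLD1, against 0 and 0 CPM in A375, at least 889-fold higher (adjusted p = 9.7e-14), while MUC2 had at most 0.221 CPM. MUC5B, an airway-type mucin, was the reverse, at 0.221 and 0.158 CPM in DLD1, against 32.4 and 32.3 CPM in A375, a log2 fold change of -7.37 ± 1.06 (adjusted p = 1.4e-05).

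Of 30 neural crest genes, 22 were lower in DLD1 and 4 higher, with a median of -5.04, or -4.22 at the bound, against a background of 27.3% lower. TFAP2B, a factor of crest specification, stood at 0 and 0 CPM in DLD1, against 160.1 and 157 CPM in A375, at least 979-fold lower (adjusted p = 5.1e-07). PAX3, which acts with SOX10 upstream of MITF, stood at 0 and 0 CPM in DLD1, against 17.2 and 14.6 CPM in A375, at least 98.1-fold lower (adjusted p = 7.3e-07). NES, the intermediate filament nestin, stood at 1.54 and 1.11 CPM in DLD1, against 332 and 356 CPM in A375, a log2 fold change of -8.02 ± 0.25 (adjusted p = 2.7e-15). L1CAM, a neural adhesion molecule, stood at 0.386 and 0.158 CPM in DLD1, against 105.5 and 109.8 CPM in A375, a log2 fold change of -8.60 ± 0.28 (adjusted p = 4.4e-15, log2 fold change -9.35 without DLD1 replicate 1). The 4 higher in DLD1 were MSX1, MSX2, NR2F1 and NR2F2, which are used in several other tissues. NR2F2 stood at 426 and 434 CPM in DLD1, against 109 and 109.5 CPM in A375, a log2 fold change of 1.98 ± 0.16 (adjusted p = 2.6e-09).

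Of 21 melanocyte genes tested out of 30, 12 were lower and 4 higher in DLD1 (median -1.78). MIA, a secreted melanoma protein, stood at 0 and 0.263 CPM in DLD1, against 137 and 129 CPM in A375, a log2 fold change of -9.87 ± 0.50 (adjusted p = 1.5e-11, log2 fold change -8.94 without DLD1 replicate 1, no DLD1 count left without DLD1 replicate 2). S100B, a calcium-binding marker of melanoma, stood at 0 and 0.0527 CPM in DLD1, against 43.2 and 43.6 CPM in A375, 1610.2-fold lower with a counting interval of 289 to 63637 (adjusted p = 9.4e-08). MITF, the master regulator of pigment cells, was slightly higher in DLD1, with 25.8 and 23.3 CPM in DLD1, against 13.8 and 13.3 CPM in A375, a log2 fold change of 0.86 ± 0.34 (adjusted p = 0.045), a call lost without any 1 of the 4 libraries (adjusted p of 0.085 to 0.16). Its pigment target PMEL stood at 1.93 and 1.63 CPM in DLD1, against 0.61 and 0.468 CPM in A375 and did not pass (adjusted p = 0.46). MLPH, which carries melanosomes and also serves in epithelia, was higher in DLD1 with 52.3 and 46.6 CPM in DLD1, against 0 and 0.156 CPM in A375, 640.2-fold higher with a counting interval of 219 to 3107 (adjusted p = 1.7e-07).

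Mesenchymal regulators and matrix genes were mostly lower in DLD1. Of 14 mesenchymal transcription factors, 11 were lower and 1 higher (median -4.60, or -3.88 at the bound). ZEB1, a repressor of E-cadherin, stood at 0.772 and 0.948 CPM in DLD1, against 27.6 and 26.5 CPM in A375, a log2 fold change of -4.96 ± 0.51 (adjusted p = 1e-07). ZEB2 stood at 0 and 0 CPM in DLD1, against 18.0 and 19.8 CPM in A375, at least 117-fold lower (adjusted p = 0.0075), and TWIST1 at 0.221 and 0 CPM in DLD1, against 9.87 and 10.2 CPM in A375, a log2 fold change of -6.44 ± 0.52 (adjusted p = 7.7e-08, log2 fold change -5.46 without DLD1 replicate 2, no DLD1 count left without DLD1 replicate 1). The one higher in DLD1 was RUNX2, a bone regulator, at 46.9 and 57.7 CPM in DLD1, against 0.814 and 0.676 CPM in A375, a log2 fold change of 6.12 ± 0.87 (adjusted p = 2.3e-05). Of 43 cytoskeleton and matrix genes, 30 were lower and 4 higher (median -4.26). Of the 10 collagens in it, 7 were lower and 0 higher. COL4A2, a basement membrane collagen, stood at 26.0 and 27.8 CPM in DLD1, against 754 and 769 CPM in A375, a log2 fold change of -4.82 ± 0.15 (adjusted p = 1.3e-15). CDH2, or N-cadherin, stood at 0 and 0.895 CPM in DLD1, against 115 and 112 CPM in A375, a log2 fold change of -7.94 ± 0.72 (adjusted p = 1.5e-07, log2 fold change -6.98 without DLD1 replicate 1, no DLD1 count left without DLD1 replicate 2). TIMP3, an inhibitor of matrix metalloproteinases, stood at 13.2 and 12.4 CPM in DLD1, against 2239 and 2300.1 CPM in A375, a log2 fold change of -7.47 ± 0.13 (adjusted p = 1.8e-17). The fibroblast products COL1A1, COL1A2, COL3A1 and FN1 stayed at or below 4.97 CPM in all 4 libraries and none passed. TGFBI, TIMP2 and S100A4 were among the 4 genes higher in DLD1, TGFBI with 162 and 168 CPM in DLD1, against 28.3 and 27.0 CPM in A375, a log2 fold change of 2.58 ± 0.23 (adjusted p = 1.1e-08).

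**Figure D2:**
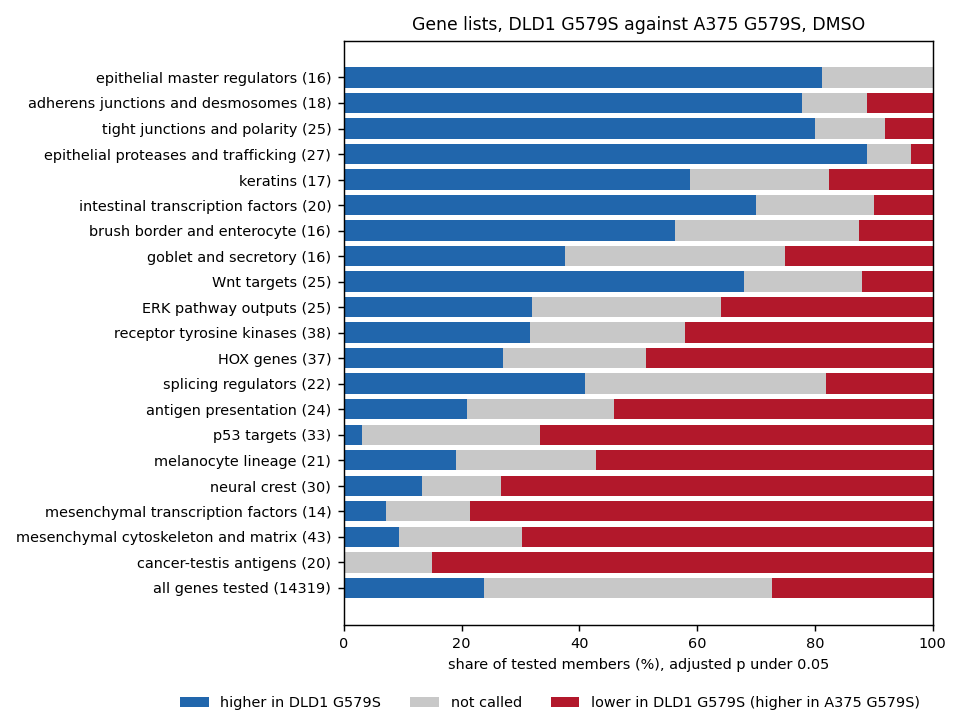
Share of the tested members of each gene list that was higher (blue), not called (grey) or lower (red) in DLD1 G579S against A375 G579S under DMSO, with the number tested in parentheses. All genes tested stand in the lowest row, with 23.8% higher and 27.3% lower. The lists were chosen with earlier results of these data known. Epithelial lists lean to blue, with 24 of 27 protease and trafficking genes higher, and neural crest, mesenchymal and cancer-testis lists lean to red, with 22 of 30 neural crest genes lower.

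The Wnt pathway controls gut stem cells through β-catenin and TCF factors, and its targets include a set of secreted and membrane inhibitors that feed back on it. Of 25 Wnt targets tested, 17 were higher in DLD1 and 3 lower (median 4.02, or 3.68 at the bound). Of the 9 feedback inhibitors, 8 were higher and 1 lower. AXIN2, a scaffold that promotes β-catenin breakdown, stood at 294 and 275 CPM in DLD1, against 0 and 0 CPM in A375, at least 1847-fold higher (adjusted p = 1.6e-06). RNF43, a ligase that removes Wnt receptors, stood at 100.0 and 106 CPM in DLD1, against 0.203 and 0.156 CPM in A375, a log2 fold change of 9.10 ± 0.66 (adjusted p = 2.3e-08). The exception was DKK1, a secreted antagonist, at 0.717 and 0.79 CPM in DLD1, against 98.9 and 96.4 CPM in A375, a log2 fold change of -7.00 ± 0.26 (adjusted p = 2.3e-14). LGR5, a receptor of gut stem cells, stood at 39.4 and 36.7 CPM in DLD1, against 0.203 and 0 CPM in A375, a log2 fold change of 8.44 ± 1.60 (adjusted p = 0.00056, log2 fold change 7.50 without A375 replicate 2, no A375 count left without A375 replicate 1). ASCL2, a stem cell transcription factor, stood at 101.5 and 108 CPM in DLD1, against 0 and 0 CPM in A375, at least 679-fold higher (adjusted p = 4.3e-05). DESeq2 did not call ASCL2 (adjusted p = 0.17), at a fitted log2 fold change of 13.43, against 13.85 in edgeR, values that depend on how 0 counts are treated. MYC and CCND1 were higher by about 2-fold, MYC with 99.7 and 106 CPM in DLD1, against 46.4 and 45.1 CPM in A375, a log2 fold change of 1.17 ± 0.15 (adjusted p = 1.9e-06), and CCND1, cyclin D1, with 1446 and 1411 CPM in DLD1, against 698 and 711 CPM in A375, a log2 fold change of 1.02 ± 0.08 (adjusted p = 9.4e-10). LEF1, which also acts in the neural crest, stood at 59.9 and 61.8 CPM in DLD1, against 57.2 and 54.6 CPM in A375 and did not pass (adjusted p = 0.66). EPHB2, a receptor that positions crypt cells, was lower, at 8.88 and 8.53 CPM in DLD1, against 45.2 and 44.2 CPM in A375, a log2 fold change of -2.36 ± 0.22 (adjusted p = 2.7e-08).

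The ERK pathway runs from receptor kinases through RAS and RAF to the kinase ERK, whose targets include its own phosphatases. Its listed outputs did not lean to one line, with 8 of 25 higher and 9 lower in DLD1 and a median of 0.00. Of the 9 DUSP, SPRY and SPRED feedback genes, 2 were higher and 4 lower. DUSP6, a phosphatase of ERK, stood at 691 and 696 CPM in DLD1, against 166 and 175 CPM in A375, a log2 fold change of 2.03 ± 0.17 (adjusted p = 4.8e-09). DUSP4, a nuclear phosphatase of the same family, stood at 30.0 and 30.4 CPM in DLD1, against 424 and 431.5 CPM in A375, a log2 fold change of -3.82 ± 0.40 (adjusted p = 1.2e-07). SPRY2 and SPRY4, inhibitors of receptor signalling, were lower as well, SPRY2 with 20.2 and 19.3 CPM in DLD1, against 199 and 205 CPM in A375, a log2 fold change of -3.35 ± 0.52 (adjusted p = 2.1e-05). The call of SPRY4 (adjusted p = 0.023) was lost without any 1 of the 4 libraries, at 0.053 to 0.12. The feedback set was thus split between the lines. The EGF receptor ligands AREG and EREG were high in DLD1, AREG with 99.5 and 108 CPM in DLD1, against 0.509 and 1.09 CPM in A375, a log2 fold change of 7.01 ± 0.49 (adjusted p = 1.5e-09, log2 fold change 7.65 without A375 replicate 2), and the ETS factor ETV1 was low in it, with 0.883 and 0 CPM in DLD1, against 16.6 and 25.7 CPM in A375, a log2 fold change of -5.57 ± 0.96 (adjusted p = 8.2e-05, log2 fold change -4.57 without DLD1 replicate 2, no DLD1 count left without DLD1 replicate 1).

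Receptor tyrosine kinases differed by identity, with 12 of 38 higher and 16 lower (median -0.78, or -0.38 at the bound). Over all genes, 23.8% were higher and 27.3% lower. EGFR stood at 107 and 98.0 CPM in DLD1, against 7.48 and 5.93 CPM in A375, a log2 fold change of 3.93 ± 0.39 (adjusted p = 5e-08). MST1R, the receptor of macrophage-stimulating protein, stood at 119 and 117 CPM in DLD1, against 0.915 and 0.884 CPM in A375, a log2 fold change of 7.02 ± 0.29 (adjusted p = 9.7e-14). KIT, known as a receptor of melanocytes, was found in the colorectal line, with 74.2 and 66.9 CPM in DLD1, against 0 and 0 CPM in A375, at least 458-fold higher (adjusted p = 2.6e-06). Of those high in A375, AXL stood at 3.81 and 3.58 CPM in DLD1, against 277 and 281 CPM in A375, a log2 fold change of -6.24 ± 0.24 (adjusted p = 5.9e-14). EPHA3 stood at 0 and 0.158 CPM in DLD1, against 214 and 211 CPM in A375, 2629-fold lower with a counting interval of 899 to 12749 (adjusted p = 3.6e-09). ERBB3, a partner of ERBB2 in neural crest derivatives, stood at 69.0 and 68.6 CPM in DLD1, against 359 and 355.5 CPM in A375, a log2 fold change of -2.38 ± 0.20 (adjusted p = 5.5e-09). MET and EPHA2 did not pass, MET with 96.8 and 104 CPM in DLD1, against 88.2 and 76.1 CPM in A375 (adjusted p = 0.66).

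Targets of p53 were mostly lower in DLD1. Of 33 tested, 22 were lower and 1 higher, with a median of -0.87, against a background of 27.3% lower. CDKN1A, the p21 inhibitor of cyclin-dependent kinases, stood at 26.0 and 24.8 CPM in DLD1, against 499 and 493 CPM in A375, a log2 fold change of -4.29 ± 0.16 (adjusted p = 2.3e-14). MDM2, a ubiquitin ligase of the same pathway, stood at 67.4 and 61.9 CPM in DLD1, against 167 and 165 CPM in A375, a log2 fold change of -1.36 ± 0.21 (adjusted p = 1.5e-05). BAX, an effector of apoptosis, stood at 45.8 and 52.6 CPM in DLD1, against 168 and 160.1 CPM in A375, a log2 fold change of -1.74 ± 0.18 (adjusted p = 1.1e-07). Both A375 libraries lay above both DLD1 libraries in each of these 3. PHLDA3, an inhibitor of AKT, stood at 3.97 and 4.32 CPM in DLD1, against 139 and 148 CPM in A375, a log2 fold change of -5.11 ± 0.27 (adjusted p = 5.1e-12), and EDA2R, a death receptor, at 0 and 0 CPM in DLD1, against 5.49 and 10.7 CPM in A375, at least 49.9-fold lower (adjusted p = 3.2e-05). GDF15, a stress cytokine that other pathways also induce, was the one higher gene, at 187 and 202 CPM in DLD1, against 5.9 and 5.98 CPM in A375, a log2 fold change of 5.03 ± 0.27 (adjusted p = 5.1e-12).

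The short arm of chromosome 9 at 9p21 holds the kinase inhibitors CDKN2A and CDKN2B. CDKN2A stood at 0 and 0 CPM in DLD1, against 3.66 and 3.33 CPM in A375, at least 21.6-fold lower (adjusted p = 1.2e-06), while CDKN2B was the reverse, with 1.77 and 1.9 CPM in DLD1, against 0 and 0 CPM in A375, at least 11.9-fold higher (adjusted p = 0.00069). Of the 10 genes tested in this region, these included, 6 were lower and 2 higher. MTAP, an enzyme of methionine salvage beside CDKN2A, was present in both, with 77.6 and 76.2 CPM in DLD1, against 239 and 235 CPM in A375, a log2 fold change of -1.62 ± 0.17 (adjusted p = 2.1e-07). In mismatch repair, 1 of 11 genes was lower in DLD1 and 4 higher, against 27.3% and 23.8% of all genes. The lower one was MSH6, which recognises single mismatches, at 22.9 and 21.3 CPM in DLD1, against 167 and 167 CPM in A375, a log2 fold change of -2.92 ± 0.31 (adjusted p = 1.5e-07).

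**Figure D3:**
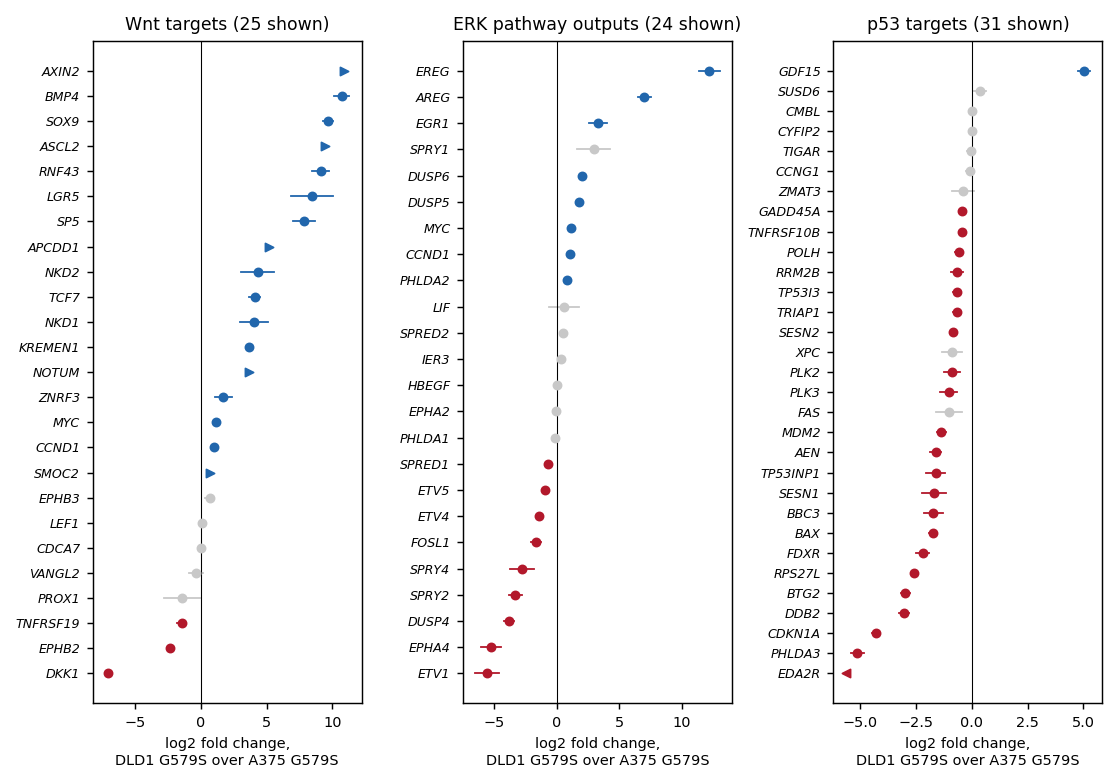
Log2 fold change of DLD1 G579S over A375 G579S under DMSO for Wnt targets, ERK pathway outputs and p53 targets, 1 row per gene, with bars of 1 approximate standard error. Blue is called higher, red called lower and grey not called. Triangles mark lower bounds for genes with no count in 1 line, and members with at most 6 counts in all, and 1 member of the p53 list, are left out. Of the Wnt targets tested 17 were higher and 3 lower, of the ERK outputs 8 and 9, and of the p53 targets 1 and 22.

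HOX genes, which record position along the body axis, differed by cluster. Over the 37 tested, 10 were higher and 18 lower in DLD1, against 23.8% and 27.3% of all genes. In the HOXA cluster 8 of 11 were higher and 2 lower. HOXA9 stood at 35.9 and 35.3 CPM in DLD1, against 0.153 and 0.26 CPM in A375, a log2 fold change of 7.39 ± 0.56 (adjusted p = 1.9e-08), and the most posterior HOXA13, a gene of the hindgut, at 42.8 and 40.8 CPM in DLD1, against 0.763 and 1.4 CPM in A375, a log2 fold change of 5.26 ± 0.49 (adjusted p = 2.2e-08). In the HOXC cluster 9 of 9 were lower and 0 higher. HOXC10 stood at 1.49 and 1.0 CPM in DLD1, against 44.7 and 46.3 CPM in A375, a log2 fold change of -5.19 ± 0.19 (adjusted p = 2.7e-12). In the HOXD cluster 5 of 8 were lower and 0 higher. The HOXB cluster was mixed, with 2 higher and 2 lower of 9. HOXB9 stood at 223 and 218 CPM in DLD1, against 35.8 and 34.1 CPM in A375, a log2 fold change of 2.66 ± 0.23 (adjusted p = 6.3e-09), and HOXB2 at 2.65 and 1.47 CPM in DLD1, against 86.1 and 92.6 CPM in A375, a log2 fold change of -5.44 ± 0.36 (adjusted p = 5.6e-10). HOXB6 did not pass, and its libraries stood apart, at 30.9 and 1.95 CPM in DLD1, against 2.14 and 0 CPM in A375. Over all genes, 47 in DLD1 and 43 in A375 had 0 in 1 library and at least 5 CPM in the other. The HOX clusters hold antisense and overlapping transcripts, and the sources used here do not say whether reads were assigned by strand.

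**Figure D4:**
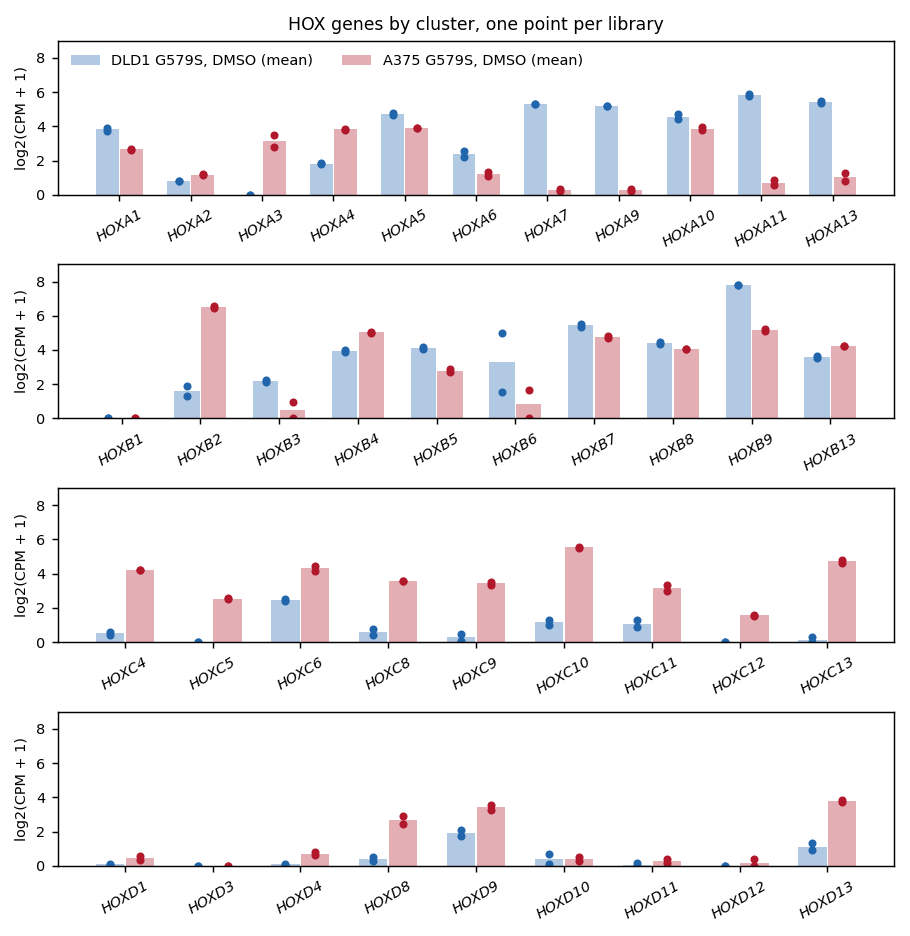
Level of each HOX gene as log2(CPM + 1), 1 panel per cluster from HOXA to HOXD and genes in order of their number. Bars are the mean of 2 libraries and points the single libraries, blue for DLD1 G579S and red for A375 G579S under DMSO. HOXA7 to HOXA13 stand above A375 in DLD1, and the whole HOXC cluster stands above DLD1 in A375. The 2 libraries of HOXB6 lie far apart.

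Of 24 antigen presentation genes tested, 13 were lower in DLD1 and 5 higher. Class II molecules normally present peptides on immune cells and depend on the activator CIITA. All 8 class II genes listed were lower in DLD1. CIITA stood at 0.386 and 0.105 CPM in DLD1, against 98.6 and 119 CPM in A375, a log2 fold change of -8.76 ± 0.61 (adjusted p = 3.2e-10, log2 fold change -9.92 without DLD1 replicate 1, log2 fold change -8.11 without DLD1 replicate 2), and HLA-DRA at 1.1 and 0.948 CPM in DLD1, against 832 and 798 CPM in A375, a log2 fold change of -9.63 ± 0.25 (adjusted p = 2e-15). Among class I genes, B2M, the light chain shared by all class I molecules, stood at 80.4 and 76.2 CPM in DLD1, against 528 and 511 CPM in A375, a log2 fold change of -2.73 ± 0.12 (adjusted p = 3.6e-13). HLA-B was lower, with 21.4 and 20.5 CPM in DLD1, against 393 and 389.9 CPM in A375, a log2 fold change of -4.23 ± 0.17 (adjusted p = 1.2e-13). HLA-C did not pass, at 369.7 and 387 CPM in DLD1, against 394 and 396 CPM in A375 (adjusted p = 0.75). These genes are close and polymorphic paralogs, so reads can be placed on the wrong one. ERAP2, a peptide-trimming enzyme, was higher, with 84.8 and 92.4 CPM in DLD1, against 1.53 and 1.3 CPM in A375, a log2 fold change of 5.96 ± 1.17 (adjusted p = 0.00042).

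Cancer-testis antigens, germ cell genes that tumours can switch on, were high in A375 and near 0 in DLD1. Of 20 tested, 17 were lower in DLD1 and 0 higher (median -8.86, or -7.71 at the bound). MAGEA3 stood at 0.828 and 0.421 CPM in DLD1, against 273 and 273 CPM in A375, a log2 fold change of -8.76 ± 0.35 (adjusted p = 2.1e-11), and MAGEC2 at 0.11 and 0.316 CPM in DLD1, against 180.3 and 168 CPM in A375, a log2 fold change of -9.61 ± 0.45 (adjusted p = 1.8e-11, log2 fold change -10.54 without DLD1 replicate 2). MAGEA genes are near-identical in sequence, so the split among the 8 tested is uncertain. Interferon-stimulated genes did not lean to a line, with 12 of 32 higher and 9 lower. ISG15, a ubiquitin-like modifier, stood at 72.6 and 79.7 CPM in DLD1, against 7.32 and 7.38 CPM in A375, a log2 fold change of 3.37 ± 0.20 (adjusted p = 3.2e-11). MX2, an antiviral GTPase, stood at 2.15 and 2.32 CPM in DLD1, against 65.9 and 67.6 CPM in A375, a log2 fold change of -4.89 ± 0.27 (adjusted p = 3.4e-10).

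Splicing regulators included the epithelial pair ESRP1 and ESRP2, RNA-binding proteins that set epithelial forms of many transcripts. ESRP2 stood at 162 and 159.8 CPM in DLD1, against 0.153 and 0.728 CPM in A375, a log2 fold change of 8.50 ± 0.46 (adjusted p = 6.1e-12, log2 fold change 7.77 without A375 replicate 1, log2 fold change 9.97 without A375 replicate 2), and ESRP1 at 12.0 and 13.1 CPM in DLD1, against 0.0509 and 0.364 CPM in A375, a log2 fold change of 5.88 ± 1.56 (adjusted p = 0.0055, log2 fold change 5.08 without A375 replicate 1, log2 fold change 7.76 without A375 replicate 2). Without A375 replicate 1 the adjusted p of ESRP1 was 0.058. QKI, a regulator linked to mesenchymal splicing, stood at 12.3 and 15.4 CPM in DLD1, against 113 and 115 CPM in A375, a log2 fold change of -3.04 ± 0.28 (adjusted p = 2.3e-08). The broad repressor PTBP1 stood at 828 and 848 CPM in DLD1, against 872 and 855 CPM in A375 and did not pass (adjusted p = 0.62). In all, 9 of 22 were higher and 4 lower, with a median of 0.10.

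Transcript usage, the share of each transcript within its gene, differed in 114 of 7052 genes with several tested transcripts (1.62%) by edgeR's diffSpliceDGE with the Simes method. Leaving out 1 library gave 52 to 64 genes. In 39 of the 114 the transcript that held at least 50% of the gene was a different one in each line. Of 30 genes listed as targets of epithelial splicing regulators, 28 could be tested and 5 passed, CD44, CTNND1, LSR, MBNL1 and RPS24. Shares below are of the gene's TPM and the test used estimated counts, and both depend on how the authors' tool divided reads that match several transcripts. CD44, a hyaluronan receptor, was lower as a gene in DLD1, with 42.7 and 48.0 CPM in DLD1, against 718 and 724 CPM in A375, a log2 fold change of -3.99 ± 0.11 (adjusted p = 6.4e-16). Its form with 3 variable exons, v8 to v10, made up 32.9% and 29.3% of the gene in DLD1 and 1.19% and 1.62% in A375 (usage adjusted p = 0.00038). The standard form without them made up 66.6% and 69.1% in DLD1 and 93.2% and 93.2% in A375. The usage call of CD44 was lost without A375 replicate 1 (adjusted p = 0.2) or replicate 2 (0.12). The exons are shown because they are the bases that set both forms apart. They lie on the plus strand of chromosome 11 in GRCh38, at chr11:35208105-35208206, chr11:35209965-35210054 and chr11:35211246-35211449, as internal coding exons in GENCODE, and their 102, 90 and 204 bases sum to 396, the difference of the deposited transcript lengths of 4985 and 4589. Capitals mark the exon and lower case the 15 bases of the neighbouring exons in the spliced form.
CD44 variable exon v8: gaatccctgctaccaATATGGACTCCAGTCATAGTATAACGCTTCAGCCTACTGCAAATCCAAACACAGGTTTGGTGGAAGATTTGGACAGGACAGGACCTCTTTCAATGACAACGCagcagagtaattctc
CD44 variable exon v9: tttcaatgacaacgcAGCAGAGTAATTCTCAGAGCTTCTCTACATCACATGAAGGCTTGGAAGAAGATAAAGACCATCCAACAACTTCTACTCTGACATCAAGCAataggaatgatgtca
CD44 variable exon v10: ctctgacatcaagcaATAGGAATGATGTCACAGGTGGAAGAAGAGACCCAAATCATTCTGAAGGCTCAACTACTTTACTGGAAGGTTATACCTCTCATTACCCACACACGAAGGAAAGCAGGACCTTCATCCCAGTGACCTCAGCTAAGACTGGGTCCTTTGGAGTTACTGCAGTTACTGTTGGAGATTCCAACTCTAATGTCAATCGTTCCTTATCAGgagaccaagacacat

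RPS24, a protein of the small ribosomal subunit, showed the opposite pattern for a short exon near its 3′ end. The form with this exon made up 2.24% and 2.32% of the gene in DLD1 and 31.5% and 30.9% in A375 (usage adjusted p = 1e-08). The groups did not overlap, and the libraries of a line agreed within 1 percentage point. The exon, shown in full, has 22 bases at chr10:78040204-78040225 on the plus strand of GRCh38, which is the difference between the deposited lengths of 656 and 634.
RPS24 short exon: TGAGCTGGAGATTGGATCACAG

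CTNND1, which encodes the junction protein p120-catenin, exists in a longer form with 2 more exons, linked to mesenchymal cells, and shorter forms linked to epithelia. Of 22 matched CTNND1 transcripts, 1 transcript of the long form made up 4.54% and 7.66% of the gene in DLD1. In A375 it made up 55.7% and 58.8% (usage adjusted p = 0.014 for the gene). Shares were not summed over all long-form transcripts. Another transcript, not assigned to a form here, made up 21.8% and 15.4% in DLD1 and 0% in both A375 libraries. A form shorter by 408 bases made up 43.9% and 51.1% in DLD1 and 19.6% and 17.1% in A375. LSR, a receptor of tricellular junctions, had 1 transcript at 68.3% and 71.1% in DLD1 and 0% in both A375 libraries (usage adjusted p = 0.014). MBNL1, itself a splicing regulator, had 1 transcript at 98.6% and 100% in DLD1 and at 14.6% and 2.64% in A375 (usage adjusted p = 0.0014). With OTS964 this MBNL1 transcript made up 86.1% and 38.2% in DLD1 and 6.82% and 41.9% in A375, so the groups overlapped in drug. RAC1, a GTPase of cell shape, had 24.1% and 22.5% of the form with the 57-base exon called RAC1b in DLD1 and 2.75% and 4.82% in A375, which did not pass (usage adjusted p = 0.15) although the groups did not overlap. The calls of CTNND1 and LSR were lost without any 1 of the 4 libraries, with adjusted p of 0.096 to 0.18 and 0.076 to 0.49, and that of MBNL1 without either DLD1 library, with 0.17 each. Those of RPS24 and KEAP1 were kept in every alternative run. Outside the list, the genes with a switched leading transcript and the smallest p-values included STMN3, LIMA1, PALM2AKAP2, KEAP1 and SLC44A2. In KEAP1, the adaptor that degrades the stress factor NRF2, one transcript held 56.4% and 58.8% in DLD1 and 0% in both A375 libraries (usage adjusted p = 3.5e-08).

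**Figure D5:**
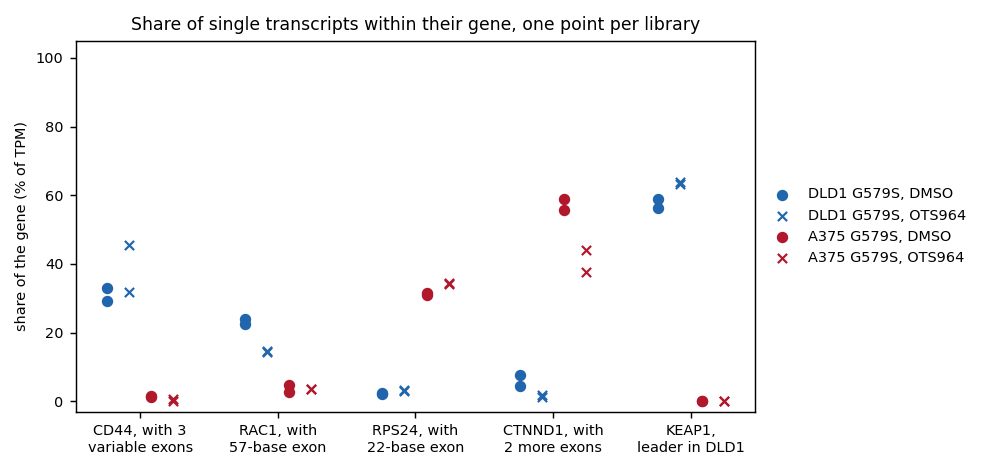
Share of single transcripts within their gene, in percent of the gene's TPM, the deposited length-scaled abundance, 1 point per library. Circles are DMSO and crosses OTS964, blue for DLD1 G579S and red for A375 G579S. The CD44 form with 3 variable exons lies at 32.9% and 29.3% in DLD1 against 1.19% and 1.62% in A375. For CTNND1, 1 transcript with the 2 more exons lies at 4.54% and 7.66% in DLD1 against 55.7% and 58.8% in A375.

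The OTS964 libraries share no sample with the DMSO comparison and gave a second reading of the same line difference. In drug, 8138 genes (56.8%) differed, 3680 (25.7%) higher and 4458 (31.1%) lower in DLD1. Of the genes called in DMSO, 6176 (84.3%) were called in the same direction in drug, which is 75.9% of the calls in drug, and 57 were called in the opposite direction. Epithelial regulators were higher in 12 cases and lower in 0, neural crest genes lower in 22 and higher in 5, and Wnt targets higher in 16 and lower in 5. Of the 8 genes of CDK11 and its partners, 4 were higher and 1 lower in DLD1 with OTS964, against 1 higher and 0 lower with DMSO. The higher ones were NPAT, a coactivator of histone genes that was also the one called with DMSO, CASP8AP2, which acts in histone RNA processing, SF3B1 and CCNL1. CCNL1, a cyclin of CDK11, was higher in DLD1 in drug, at 74.6 and 79.7 CPM in DLD1 with OTS964, against 17.7 and 16.6 CPM in A375 with OTS964, a log2 fold change of 2.17 ± 0.36 (adjusted p = 4.1e-05). The change of the line difference from DMSO to drug was 1.63 ± 0.51 (adjusted p = 0.069) and did not pass. The lower one was SAP30BP, an RNA splicing factor, at 44.1 and 49.3 CPM in DLD1 with OTS964, against 78.3 and 74.2 CPM in A375 with OTS964, a log2 fold change of -0.71 ± 0.10 (adjusted p = 5.9e-06), and its line difference changed by -0.58 ± 0.14 (adjusted p = 0.02), a call lost without any 1 replicate of either line (adjusted p of 0.097 to 0.18).

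Tested directly, the line difference changed with OTS964 in 746 genes (5.21%), upward in 200 (1.4%) and downward in 546 (3.81%). Scaled by library totals alone, 77 went upward and 986 downward. With 1 replicate of a line left out in both treatments, 195 to 293 genes passed, and 1225 passed when the DLD1 wild-type libraries were left out, 473 upward and 752 downward. CDKN1A stood at 13.3 and 12.9 CPM in DLD1 with OTS964, against 574 and 526 CPM in A375 with OTS964, and its line difference changed by -1.11 ± 0.20 (adjusted p = 0.0025). CCND1 stood at 1305 and 1299 CPM in DLD1 with OTS964, against 912 and 947 CPM in A375 with OTS964, a change of -0.53 ± 0.11 (adjusted p = 0.0051). DKK1 stood at 0.336 and 0.0704 CPM in DLD1 with OTS964, against 136 and 130.2 CPM in A375 with OTS964, a change of -2.21 ± 0.53 (adjusted p = 0.017). These 3 moved downward, so that the gap widened for CDKN1A and DKK1 and narrowed for CCND1. CTNNB1, which had not passed in DMSO, stood at 354 and 353 CPM in DLD1 with OTS964, against 472 and 472 CPM in A375 with OTS964, a change of -0.39 ± 0.09 (adjusted p = 0.014). CLDN12 stood at 7.34 and 6.97 CPM in DLD1 with OTS964, against 26.8 and 35.3 CPM in A375 with OTS964, a change of -1.78 ± 0.21 (adjusted p = 4e-05), the smallest p-value among the junction genes. NR2F2 stood at 752 and 803 CPM in DLD1 with OTS964, against 114 and 111 CPM in A375 with OTS964, a change of 0.81 ± 0.22 (adjusted p = 0.035). SF3B1, a core splicing factor that CDK11 phosphorylates, stood at 401 and 386 CPM in DLD1 with OTS964, against 244 and 267.5 CPM in A375 with OTS964, a change of 0.60 ± 0.15 (adjusted p = 0.023). HOXA5 stood at 51.4 and 53.1 CPM in DLD1 with OTS964, against 13.5 and 13.1 CPM in A375 with OTS964, a change of 1.15 ± 0.21 (adjusted p = 0.0049). Of these 8 genes, CLDN12 kept its call in every alternative run. CCND1, CTNNB1, NR2F2 and SF3B1 lost theirs without any 1 replicate of either line, with adjusted p from 0.056 to 0.24, and NR2F2 and SF3B1 also under library totals (0.09 and 0.19). CDKN1A (0.058) lost its call without A375 replicate 1. DKK1 (0.064 to 0.28) and HOXA5 (0.065 to 0.078) lost theirs without DLD1 replicate 2 or either A375 replicate. The 2 A375 libraries with OTS964 differed more from each other than any other pair used here, with a chi-square per degree of freedom of 24.5 against 9.11 for DLD1 with OTS964, 6.96 for DLD1 with DMSO and 5.59 for A375 with DMSO.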

How the data were processed

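RNA-seq tables of 32 libraries were read, 4 of which form the main comparison. Per the file headers, the authors deposited an estimated count (NumReads), a length, an effective length and a TPM value for each transcript. The tool behind these deposited TPM and estimated counts, and any use of strand, are not stated in the labels. The identifiers are human RefSeq transcripts although the submitters' notes name a mouse build, so no coordinates were taken from the files. Identifiers were matched to genes through RefSeq and GENCODE v29 tables, 42589 of 87398 (48.7%), and reads of unmatched ones, 12.01% to 13.1% in the 4 libraries, were left out. Estimated counts were summed per gene and rounded. One edgeR 4.0.16 model of 16 groups (R 4.3.3, limma 3.58.1) with TMM factors and filterByExpr gave quasi-likelihood F-tests with 16 residual degrees of freedom and Benjamini-Hochberg adjustment over 14319 genes, and all adjusted p-values of genes come from it unless DESeq2 1.42.0 is named. Transcript usage was tested with diffSpliceDGE, and exon sequences were read from GENCODE v29 transcripts (GRCh38). Both steps were tested on simulated counts. Genes were named as the 12 widest gaps in each direction plus members of the gene lists, chosen for their roles. Members and lists were chosen with earlier results of these data known. Intervals and floors cover counting error only, at 95% (exact). Alternatives covered scaling, filters, DESeq2, the libraries in the model, length-scaled counts, a replicate block and leaving out each replicate. A few list members are counted but not reported by name here.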

Additional observations from a re-analysis of the deposited data

Results flagged for a closer look

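In 10 of the 173 named genes tested, the difference between DLD1 and A375 was not the same with OTS964 as with DMSO. The edgeR test was of that change itself. The change, as the log2 difference with OTS964 minus that with DMSO, was -2.21 for DKK1, -1.78 for CLDN12, -1.47 for ALDH1A3, -1.11 for CDKN1A, -0.58 for SAP30BP, -0.53 for CCND1 and -0.39 for CTNNB1. It was 1.15 for HOXA5, 0.81 for NR2F2 and 0.6 for SF3B1. DKK1 had few counts in DLD1 with OTS964, so the size of its change is uncertain. These 10 genes were picked out among the named genes because the change passed an adjusted p under 0.05 over all genes tested, where 5.21% passed. That share is close to 10 of 173, so the named genes did not stand out as a set. With 1 replicate of a line left out at a time, CLDN12 and ALDH1A3 kept their calls throughout, and each of the other 8 lost its call in at least 1 case.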

How the results depend on the processing

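Except where 1 replicate was left out, all alternatives kept the libraries of each comparison, with the other libraries as stated. The counts of genes called with DMSO (6095 to 9358), with a fold of at least 2 as well (4304 to 4975) and with OTS964 (6889 to 8417) stayed within 1.5 times their reported values, except that a test against a fold of 2 gave 3478 genes. The genes whose line difference changed with OTS964, 746 as reported, numbered 1655 by DESeq2's Wald test, 2178 when only the 8 libraries were fitted, 1225 without the libraries labelled DLD1 wild-type, an alternative chosen after seeing the data, and 195 to 293 with 1 replicate left out. Genes with a difference in transcript usage, 114 as reported, numbered 513 when only the 4 libraries were fitted and 52 to 64 with 1 replicate left out. In those, the lone library was assumed to vary like the other groups, and the cause of the lower counts was not tested. Under library totals alone the share of higher calls among all calls was 51%, against 46.5% as reported, and the median of all genes moved to 0.03. Of 2409 fold changes recomputed for 173 named genes, 2383 kept direction and side of the threshold, 16 lost the call, 10 gained it and 0 reversed. In 16 of the called genes given with a standard error, leaving out 1 library moved the fold by over 1.5 times, as given beside each. DESeq2 did not call ASCL2 (adjusted p = 0.17), SPRY4 (0.084) or VIL1 (0.19). The replicate block gave 7257, 4752, 8080, 711 and 100 for the counts above. Same-numbered libraries did not deviate together (correlation of deviations -0.03 with DMSO and -0.01 with OTS964, over a range of -0.2 to 0.21 for 120 pairs of groups), so the numbers were not taken as pairs. One count was worth 0.0509 to 0.0552 CPM in the 4 libraries, which limits genes near that level.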

Other observations

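Integrins and laminins, which anchor cells to basement membrane, were split by partner. Of 26 tested, 9 were higher and 12 lower in DLD1, against 23.8% and 27.3% of all genes. ITGB4, which with ITGA6 forms hemidesmosomes, stood at 191 and 159.5 CPM in DLD1, against 0.254 and 0 CPM in A375, a log2 fold change of 10.34 ± 1.52 (adjusted p = 1.1e-05, log2 fold change 9.39 without A375 replicate 2, no A375 count left without A375 replicate 1). LAMA3 and LAMB3, chains of the epithelial laminin, were higher too, LAMB3 with 126 and 125 CPM in DLD1, against 20.5 and 17.4 CPM in A375, a log2 fold change of 2.73 ± 0.13 (adjusted p = 1.2e-12). ITGB3, a receptor subunit of invasive melanoma, stood at 0.386 and 0.158 CPM in DLD1, against 143 and 141 CPM in A375, a log2 fold change of -9.00 ± 0.36 (adjusted p = 8.9e-14, log2 fold change -9.75 without DLD1 replicate 1). ITGA4 stood at 0 and 0.263 CPM in DLD1, against 59.6 and 56.1 CPM in A375, a log2 fold change of -8.68 ± 0.83 (adjusted p = 6.2e-08, log2 fold change -7.74 without DLD1 replicate 1, no DLD1 count left without DLD1 replicate 2), and LAMA4, a laminin of mesenchyme and vessels, at 0.386 and 0.474 CPM in DLD1, against 281.5 and 279 CPM in A375, a log2 fold change of -9.32 ± 0.44 (adjusted p = 8e-13).

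Of 20 glycosylation and CEA family genes, 9 were higher and 5 lower. B3GNT3, which extends mucin-type chains, stood at 42.3 and 45.0 CPM in DLD1, against 0 and 0 CPM in A375, at least 283-fold higher (adjusted p = 5.4e-09). B4GALNT1, which makes complex gangliosides, stood at 0.441 and 0 CPM in DLD1, against 81.3 and 78.2 CPM in A375, a log2 fold change of -8.48 ± 0.40 (adjusted p = 1.1e-12, log2 fold change -7.47 without DLD1 replicate 2, no DLD1 count left without DLD1 replicate 1), and ST6GAL1, a sialyltransferase, at 1.05 and 0 CPM in DLD1, against 131 and 142 CPM in A375, a log2 fold change of -8.03 ± 0.89 (adjusted p = 9.6e-07, log2 fold change -7.02 without DLD1 replicate 2, no DLD1 count left without DLD1 replicate 1). The colorectal marker CEACAM5 had at most 0.369 CPM in any of the 4 libraries. Of 28 genes of drug metabolism and NRF2 response, 8 were higher and 8 lower. ALDH1A3, a retinaldehyde dehydrogenase, stood at 8.61 and 8.95 CPM in DLD1, against 894 and 885 CPM in A375, a log2 fold change of -6.66 ± 0.14 (adjusted p = 1.5e-17), and ALDH3A1 at 72.5 and 83.8 CPM in DLD1, against 0 and 0 CPM in A375, at least 506.5-fold higher (adjusted p = 4.6e-09). Of 13 S100 calcium-binding genes, 4 were higher and 8 lower, with S100A14 at 96.2 and 99.2 CPM in DLD1, against 0.254 and 0.26 CPM in A375, a log2 fold change of 8.53 ± 1.11 (adjusted p = 4.5e-06), and S100A1 at 0.221 and 0.211 CPM in DLD1, against 51.5 and 51.1 CPM in A375, a log2 fold change of -7.85 ± 0.41 (adjusted p = 2.9e-11).

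Of 19 ion channel and neural genes, 4 were higher and 12 lower. SCNN1A, a subunit of the epithelial sodium channel, stood at 81.4 and 83.1 CPM in DLD1, against 0.0509 and 0.052 CPM in A375, 1600.3-fold higher with a counting interval of 443 to 13219.8 (adjusted p = 3.4e-15), and KCNMA1, a potassium channel, at 0 and 0 CPM in DLD1, against 45.3 and 46.9 CPM in A375, at least 285-fold lower (adjusted p = 1.9e-08). Of 64 cytosolic ribosomal protein genes, 45 were lower in DLD1 and 3 higher with DMSO, with a median log2 fold change of -0.52, and 28 were lower and 8 higher with OTS964. Of 31 proteasome genes, 11 were lower and 7 higher with DMSO. Over all genes tested, 27.3% were lower and 23.8% higher with DMSO, and 31.1% and 25.7% with OTS964. By chromosome, over autosomal genes with a mean of at least 5 CPM, the median log2 fold change was highest on chromosome 18 (0.66), chromosome 14 (0.51) and chromosome 2 (0.44) and lowest on chromosome 19 (-0.29) and chromosome 1 (-0.23), against 0.01 over all autosomes. With OTS964 the same 5 chromosomes stood at 0.62, 0.5, 0.42, -0.39 and -0.23. Chromosome 6, at 0.45 with OTS964 against 0.38 with DMSO, then stood above chromosome 2, and chromosome 16, at -0.36 with OTS964 against -0.19 with DMSO, below chromosome 1.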
